A study of Homo sapiens with 4 samples.

Results

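The alpha- and beta-tubulin isotypes counted in MCF10A cells, a non-tumorigenic human breast epithelial line, were followed from wild type (WT) cells to cells overexpressing HSF1, the heat shock transcription factor. The group holds 10 genes, found by symbol and Ensembl identifier among the 63856 genes of the count table: 4 alpha isotypes (TUBA1A, TUBA1B, TUBA1C and TUBA4A) and 6 beta isotypes (TUBB, TUBB2A, TUBB2B, TUBB3, TUBB4B and TUBB6). RNA-seq of total RNA depleted of ribosomal RNA gave 2 libraries of unmodified cells and 2 of cells stably transduced with a lentivirus carrying HSF1 cDNA in the pLVX-Puro vector. All 4 cultures grew in DMEM/F12 with horse serum, insulin, hydrocortisone, EGF and cholera toxin, and transduced cells had been selected in puromycin. Whether the transduced replicates came from separate transductions is not given in the sources used here, and libraries of cells with the empty vector were not analysed here. HSF1, the vector, the selection and the separate culture cannot be told apart. The family was chosen by its differences between HSF1-overexpressing and WT cells in these same libraries, TUBA1A being among the deepest falls. Its fold changes are therefore given as a description, without p-values.

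Microtubules are hollow filaments built from dimers of alpha- and beta-tubulin, and each kind of tubulin is encoded by several genes, the isotypes, whose proteins are nearly alike except at the C-terminal tail. Cells mix isotypes in proportions typical of the tissue: TUBA1B, TUBA1C, TUBB and TUBB4B are found in most cells, while TUBA1A, TUBB2A, TUBB2B and TUBB3 are abundant in developing neurons. Free tubulin dimers also control the stability of tubulin mRNA: the factor TTC5 binds the first residues of the growing tubulin chain at the ribosome, and through SCAPER the mRNA is then deadenylated and degraded.

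Because TTC5 reads the start of the chain, the first 15 bases of each coding sequence (hg38, MANE transcript) are shown, with capitals at the positions that differ between members of the same family. Among the alpha isotypes 1 such position varied.
TUBA1A: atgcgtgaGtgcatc
TUBA1B: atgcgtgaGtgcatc
TUBA1C: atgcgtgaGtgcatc
TUBA4A: atgcgtgaAtgcatc
Among the beta isotypes 3 positions varied, and TUBB2A and TUBB2B stood apart from the others at the first of them.
TUBB: atgAgGgaAatcgtg
TUBB2A: atgCgCgaGatcgtg
TUBB2B: atgCgTgaGatcgtg
TUBB3: atgAgGgaGatcgtg
TUBB4B: atgAgGgaAatcgtg
TUBB6: atgAgGgaGatcgtg
TUBA1A, TUBA1B and TUBA1C therefore began with the same 15 bases. Read as codons, the varying bases changed no residue: each alpha isotype began MRECI and each beta isotype MREIV. Over the whole coding sequence TUBA1A was 97.2% identical to TUBA1B, 95.9% to TUBA1C and 84.4% to TUBA4A, and TUBB2A was 98.1% identical to TUBB2B. This likeness bears on how reads can be assigned. Of the 76-base windows of the transcript, the read length of the libraries, 30.8% of TUBA1A, 46.2% of TUBA1B, 16.9% of TUBA1C and 58.6% of TUBB2A occurred letter for letter elsewhere on the main chromosomes. For TUBA4A, TUBB3, TUBB4B and TUBB6 the share was between 0 and 6.74%.

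The libraries held 19510275 and 18688109 counts for WT cells and 24184285 and 19851092 for HSF1-overexpressing cells. HSF1 itself was at 200 and 189 CPM (counts scaled to a common library size after TMM normalization) in WT cells and at 982 and 999 in HSF1-overexpressing cells, 5.08-fold higher (log2 fold change 2.35, SE 0.10; adjusted p = 1.14e-10, edgeR quasi-likelihood test with Benjamini-Hochberg adjustment). Replicates differed by more than sampling noise, with a chi-square per degree of freedom of 7.34 for the WT pair and 9.02 for the HSF1 pair. Markers of mammary epithelium were all present. Of 10 listed, 3 rose (KRT5, TP63 and ITGA6) and 7 fell, where 32.7 and 33.2% of all tested genes were called higher and lower. Their summed level was 19930 and 19620 CPM in WT cells against 9051 and 9647. Of the other cell types checked, PTPRC of leukocytes and ELAVL4, NEFL and NEFM of neurons were at 0 in every library, and COL1A2, COL3A1 and LUM of fibroblasts had at most 1 count in any. DCN of the fibroblast list rose 35.8-fold, from 0.0533 and 0.162 CPM to 3.74 and 4.38 CPM (adjusted p = 1.12e-07, edgeR), while the list summed to 7.88 and 10.9 CPM against 15.02 and 13.94. KDR of the endothelium list rose 7.56-fold (adjusted p = 6.42e-09, edgeR), and that list summed to 3.04 and 1.94 CPM against 13.1 and 14.3. The leukocyte list summed to 1.23 and 0.861 CPM in WT cells and to 58.6 and 83.3 CPM in HSF1-overexpressing cells, nearly all of it CD14, which rose (log2 fold change 6.36; adjusted p = 4.54e-11, edgeR). The part of these marker changes in the tubulin values was not tested.

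Of the 10 isotypes, 8 had enough counts to be tested. Of these 7 were lower in HSF1-overexpressing cells, 0 were higher and 1, TUBA1B, was not called. Across all 15830 tested genes, 33.2% were called lower and 32.7% higher at an adjusted p of 0.05, so a call by itself was common in this comparison. Past 2-fold, 6 isotypes were lower, where the share of all tested genes was 14.0%. The median log2 fold change of the 8 tested isotypes was -1.44, against 0.02 over all tested genes. In 8 of the 10, TUBB2B included, both HSF1 libraries lay below both WT libraries, an arrangement seen in 41.0% of all tested genes (42.1% had both HSF1 libraries above). By the study's own rule, a ratio below 0.50 in both replicates of the deposited normalized values, TUBA1A, TUBA4A, TUBB2A, TUBB3, TUBB4B and TUBB6 were lower, beside 6.42% of the 22321 rows of that table.

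**Figure D1:**
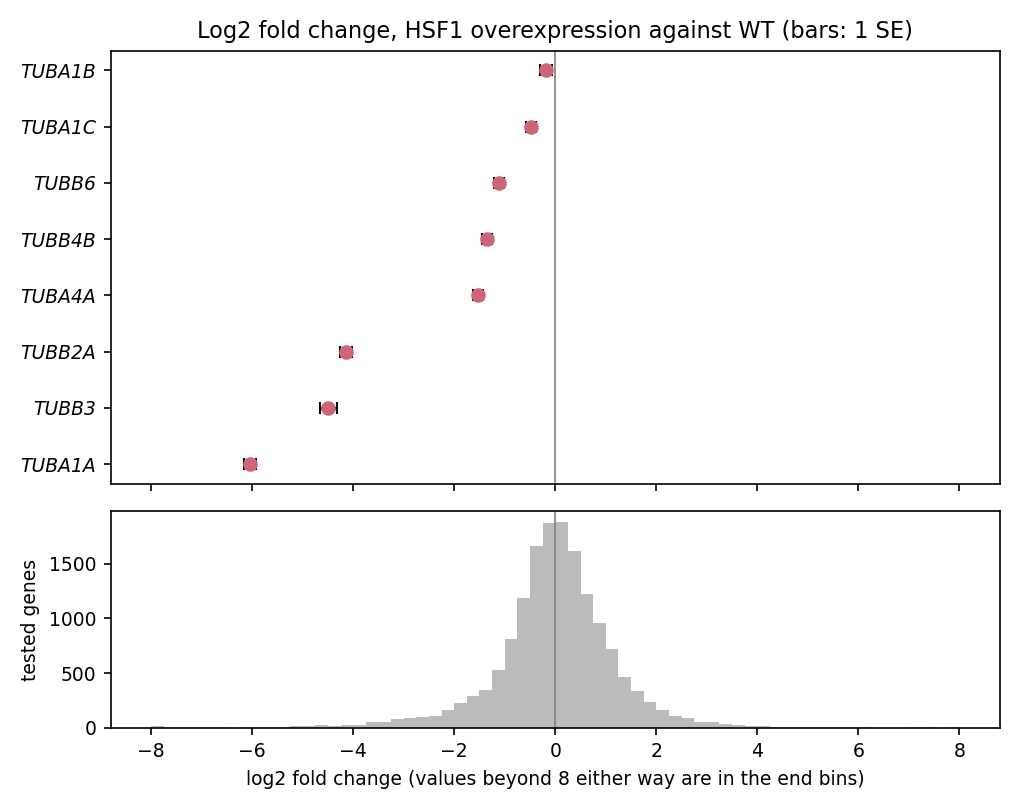
Log2 fold change of HSF1-overexpressing against WT cells for the 8 tested isotypes (points, with bars of 1 SE), above a histogram of the same value over all 15830 tested genes (gene number on the vertical axis). TUBA1A, TUBB3 and TUBB2A lie far in the lower tail, between -6.04 and -4.14, and the other 5 lie between -1.53 and -0.18.

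TUBA1A (ENSG00000167552.13, minus strand of chromosome 12, 49184796 to 49189324, hg38) had the deepest fall of the family. This alpha isotype is best known from migrating and differentiating neurons, where its mutation disturbs cortical layering. It was at 629 and 662 CPM in the WT libraries, from 11815 and 12292 counts, and at 10.6 and 8.81 CPM in the HSF1 libraries, from 267 and 175 counts. Both HSF1 libraries thus kept only a trace of the WT level, and the replicates lay close together in each group (645 ± 22.7 against 9.72 ± 1.29 CPM, SD, n = 2). The mean level was 66.0-fold lower (log2 fold change -6.04, SE 0.13). Among all tested genes 50 had a lower log2 fold change. The genes next to it in that order were RCAN2 (-6.05) and DCLK2 (-6.07) on the lower side and DPYSL3 (-6.03) and GLI2 (-6.01) on the other. In bulk RNA, fewer cells expressing TUBA1A and less of its RNA per cell cannot be told apart.

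TUBA1B (ENSG00000123416.15, minus strand of chromosome 12, 49127782 to 49131397), the alpha isotype of most proliferating cells, was the member that moved least. Its level was 190 and 161 CPM in WT cells and 176 and 134 CPM in HSF1-overexpressing cells. The groups overlapped, since the first HSF1 library lay above the second WT library (175 ± 19.9 against 155 ± 29.4 CPM, SD, n = 2). The log2 fold change was -0.18 (SE 0.12), and it ran from -0.38 to 0.01 when single libraries were left out, with the 0.01 reached without the second HSF1 library and a call as lower reached without the second WT library or the first HSF1 library.

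TUBA1C (ENSG00000167553.15, plus strand of chromosome 12, 49188736 to 49274603), the third gene of this cluster, fell modestly. It was at 217 and 207 CPM in WT cells and at 160 and 144 CPM in HSF1-overexpressing cells, so the groups did not overlap. The mean was 1.39-fold lower (log2 fold change -0.48, SE 0.09). Its exons share 490 bases with those of TUBA1A on the opposite strand, 14.3% of the counted length of TUBA1A and 10.6% of that of TUBA1C. Whether the counting used strand is not given in the sources used here, and reads from that stretch cannot be told apart without it.

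A read of TUBA1A counted at TUBA1B or TUBA1C, or the reverse, stays within the sum of the 3 genes, while one dropped as ambiguous or placed at the pseudogene TUBAP2 leaves it. Of the windows, 2.32% of TUBA1A and 11.02% of TUBA1B occurred in TUBAP2, which had 20 and 30 counts in WT cells and 19 and 16 in HSF1-overexpressing cells. The summed level of the 3 genes was 1036 and 1030 CPM in WT cells and 347 and 288 CPM in HSF1-overexpressing cells, which is 30.7% of the WT mean. Split across the cluster, the difference lay almost wholly at TUBA1A. Of the windows of TUBA1A, 24.8% also occurred in TUBA1B and 14.97% in TUBA1C.

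TUBA4A (ENSG00000127824.13, minus strand of chromosome 2, 219249711 to 219278170) is an alpha isotype made without the C-terminal tyrosine that TUBA1A, TUBA1B and TUBA1C carry. It was at 271 and 272 CPM in WT cells and at 102 and 85.4 CPM in HSF1-overexpressing cells. The WT replicates were nearly equal and both HSF1 libraries were far below them (271 ± 0.755 against 93.8 ± 11.9 CPM, SD, n = 2), a 2.89-fold lower mean (log2 fold change -1.53, SE 0.10). Its exons overlap those of STK16 on the other strand over 627 bases, 15.4% of its counted length. The counts of STK16 were 394 and 397 in WT cells and 704 and 579 in HSF1-overexpressing cells, the opposite direction in raw counts.

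**Figure D2:**
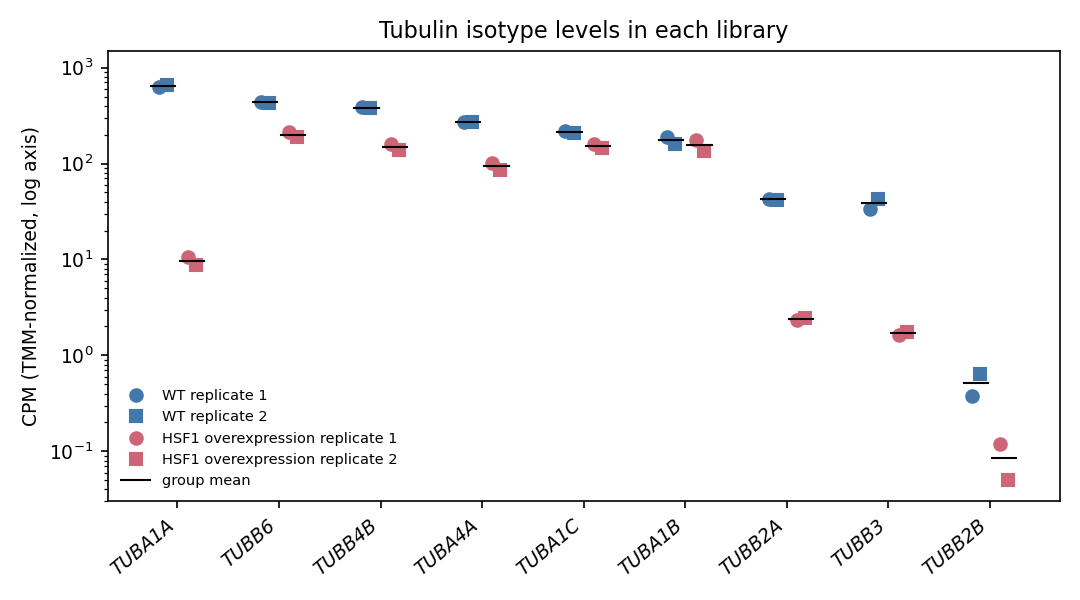
TMM-normalized CPM (log axis) of the isotypes with counts in each of the 4 libraries, with short lines at the group means. CPM is not divided by length, so heights compare libraries within a gene. TUBA1A drops from 629 and 662 to 10.6 and 8.81 CPM, TUBB2A and TUBB3 drop to between 1.63 and 2.47 CPM, and the TUBA1B groups overlap.

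Among the beta isotypes, TUBB4B and TUBB6 carried most of the counts and fell by like amounts. TUBB4B (ENSG00000188229.5, plus strand of chromosome 9, 137241213 to 137243707), a widely expressed isotype that is also a main beta-tubulin of cilia, was at 384 and 380 CPM in WT cells and at 161 and 139 CPM in HSF1-overexpressing cells. The mean was 2.54-fold lower (log2 fold change -1.35, SE 0.10). TUBB6 (ENSG00000176014.12, plus strand of chromosome 18, 12307669 to 12344320), the class V isotype, was at 436 and 432 CPM in WT cells and at 211 and 191 CPM in HSF1-overexpressing cells. Its mean was 2.16-fold lower (log2 fold change -1.11, SE 0.09). No 76-base window of the TUBB6 transcript and 5.51% of those of TUBB4B occurred elsewhere on the main chromosomes. That covers exact matches of the MANE transcript only, which for TUBB6 is 1879 bases against 4117 counted. Reads placed with mismatches were not examined. TUBB6 shares 837 bases, 20.3% of its counted length, with AFG3L2 on the other strand, whose counts were 670 and 666 in WT cells against 1276 and 1101.

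TUBB2A and TUBB3 fell much further. TUBB3 (ENSG00000258947.6, plus strand of chromosome 16, 89921392 to 89938761), the class III isotype used as a marker of neurons and also found in many carcinoma lines, was at 33.7 and 43.0 CPM in WT cells and at 1.63 and 1.76 CPM in HSF1-overexpressing cells. The mean was 22.6-fold lower (log2 fold change -4.50, SE 0.17). Beside it, the neuron marker list summed to 4.85 and 5.11 CPM in WT cells and to 0.996 and 0.956 CPM in HSF1-overexpressing cells. Of its 8 genes 1, SYT1, was tested and fell (log2 fold change -4.64; adjusted p = 7.12e-08, edgeR), and 3 were at 0 everywhere. SYT1 made up most of the sum in WT cells, at 4.37 and 4.79 CPM against 0.239 and 0.101. RBFOX3 went the other way, from 4 and 3 counts to 13 and 8, and SYN1 had 4 and 1 against 5 and 8. SNAP25 and ELAVL3 had at most 1 count in any library. The part of the neuron list in the TUBB3 values was not tested.

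TUBB2A (ENSG00000137267.5, minus strand of chromosome 6, 3153669 to 3157526), a beta isotype of neurons and several other tissues, was at 43.0 and 42.0 CPM in WT cells and at 2.35 and 2.47 CPM in HSF1-overexpressing cells. The replicates lay close together in both groups and the mean was 17.7-fold lower (log2 fold change -4.14, SE 0.13). Its near copy TUBB2B (ENSG00000137285.9, minus strand of chromosome 6, 3224261 to 3231730), an isotype of the developing brain, had 7 and 12 counts in WT cells and 3 and 1 in HSF1-overexpressing cells. These counts were too few for the test. The ratio of summed counts, WT over HSF1 and scaled by total library counts, was 5.48 with a 95% interval of 1.82 to 22.1. That interval covers counting error only. The log2 ratio of its mean CPM ran from -3.34, without the first HSF1 library, to -2.09 without the second. Since 55.9% of the windows of TUBB2A also occur in TUBB2B, the pair was summed as well: 43.4 and 42.7 CPM in WT cells against 2.47 and 2.52, or 5.79% of the WT mean.

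TUBB itself (ENSG00000196230.12, plus strand of chromosome 6, 30720201 to 30725426), the commonest beta isotype of dividing cells, had 0 counts in all 4 libraries at its main locus. With 0 counts its share of the tubulin counts could be at most 0.00725 and 0.00734% in the WT libraries and 0.0145 and 0.0214% in the HSF1 libraries, for counting error only. This 0 is no measure of its expression. The gene lies in the major histocompatibility region, for which hg38 carries alternate contigs: 91.2% of its windows occurred again on 7 other contigs. Of the 32 protein-coding genes within 500 kb of TUBB, 25 (78.1%) were at 0 in every library, against 14.1% of the 715 on chromosome 6 outside 25 to 35 Mb.

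Counts did appear at a contig copy of TUBB and at 2 TUBB pseudogenes. A contig copy of TUBB (ENSG00000227739.10, on an alternate contig of the region) had 584 and 592 counts in WT cells and 526 and 348 in HSF1-overexpressing cells, or 31.1 and 31.9 CPM against 21.0 and 17.5. It was lower by a log2 fold change of -0.71 (SE 0.11). The processed pseudogene TUBBP1 had 2602 and 2290 counts in WT cells and 1625 and 1139 in HSF1-overexpressing cells, and TUBBP2 had 2117 and 1847 against 1394 and 971. Together the main locus, its contig copies and these 2 pseudogenes stood at 283 and 255 CPM in WT cells and at 141 and 124 CPM in HSF1-overexpressing cells, 49.3% of the WT mean. How much of the pseudogene counts came from TUBB mRNA was not tested. Of the TUBB windows, 8.57% matched TUBBP1 exactly and 0.205% matched TUBBP2.

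Levels of different isotypes can be set side by side only per length, as CPM per kb of counted exon. In WT cells TUBA1A (189 ± 6.65) and TUBB4B (181 ± 1.34) came first, followed by TUBB6 (105 ± 0.636), TUBA4A (66.5 ± 0.191), TUBA1B (49.1 ± 5.56) and TUBA1C (45.8 ± 1.53; SD, n = 2 for each). TUBA1B and TUBA1C overlapped in that order, and every other pair of neighbours stood apart in both WT libraries, TUBA1A and TUBB4B only narrowly (184 and 193 against 182 and 180). In HSF1-overexpressing cells the order was TUBB4B (71.1 ± 7.33), TUBB6 (48.8 ± 3.46), TUBA1B (43.4 ± 8.23), TUBA1C (32.9 ± 2.38), TUBA4A (23.0 ± 2.92) and TUBA1A (2.84 ± 0.378), and TUBB6 and TUBA1B overlapped. TUBA1A thus moved from rank 1 to rank 6. Counted exons are longer than the main transcript for most of these genes, for example 3421 against 1672 bases for TUBA1A. Dividing by the main transcript kept every rank in WT cells and swapped TUBB6 (107) and TUBB4B (96.1) in HSF1-overexpressing cells.

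Each library's summed tubulin counts were then divided among the 10 isotypes. The sums were 41376 and 40874 counts in WT cells and 20710 and 14049 in HSF1-overexpressing cells, and no 95% interval of a share (exact Clopper-Pearson, counting error only) was wider than 0.737 percentage points either way. TUBA1A made up 28.6% (28.1 to 29.0) and 30.1% (29.6 to 30.5) of the tubulin counts in WT cells. It made up 1.29% (1.14 to 1.45) and 1.25% (1.07 to 1.44) in HSF1-overexpressing cells. TUBA1A thus went from the largest share of the family to about the level of a minor isotype.

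The shares of TUBA1B and TUBA1C rose in turn, without a rise in their own level. TUBA1B took 8.60 and 7.34% in WT cells and 21.3 and 19.0% in HSF1-overexpressing cells. TUBA1C took 9.86 and 9.42% in WT cells and 19.4 and 20.4% in HSF1-overexpressing cells. The shares of the main beta isotypes were also larger: TUBB6 held 19.8 and 19.6% in WT cells against 25.6 and 27.0%, and TUBB4B 17.4 and 17.3% against 19.5 and 19.7%. These depend on what is summed. All 78 tubulin rows take in contig copies of TUBB, pseudogenes, further alpha and beta genes and gamma-, delta- and epsilon-tubulin. Over these rows TUBB6 went from 17.0 ± 0.0424% to 20.1 ± 0.537%, and TUBB4B was at 14.97 ± 0.0141% and 14.97 ± 0.0919% (SD, n = 2). Of the added rows, TUBBP1, TUBBP2 and a contig copy of TUBB were lower in HSF1-overexpressing cells, and TUBE1, TUBD1 and TUBG2 higher. The part of each added row in these shares was not tested. The share of TUBA4A differed by less than the replicate spread, with 12.3 and 12.4% in WT cells and 12.4 and 12.1% in HSF1-overexpressing cells, but over all tubulin rows it went from 10.6 ± 0.120% to 9.34 ± 0.274%, more than that spread. The share of TUBB2A went from 1.95 and 1.91% to 0.285 and 0.349%, that of TUBB3 from 1.53 and 1.96% to 0.198 and 0.249%, and TUBB2B stayed below 0.03% in all libraries.

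**Figure D3:**
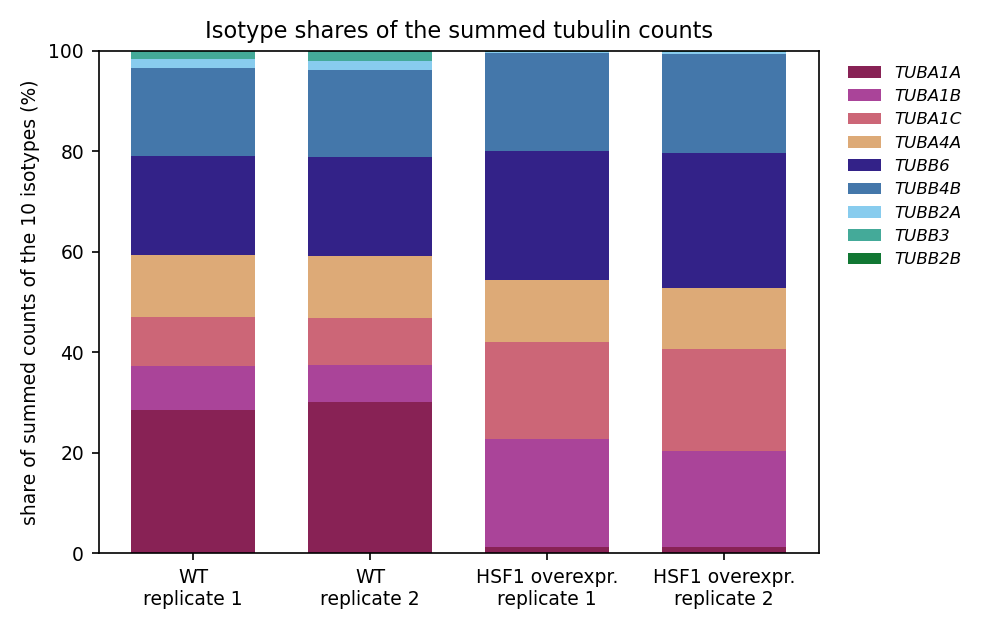
Percent of the summed counts of the 10 isotypes taken by each isotype in each of the 4 libraries (stacked bars from 0 to 100%). TUBA1A fills 28.6 and 30.1% of the WT bars and 1.29 and 1.25% of the HSF1 bars, and TUBA1B, TUBA1C and TUBB6 take larger parts of the latter.

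Within the alpha family alone, TUBA1A went from 49.5 ± 1.87% to 2.37 ± 0.00566%, TUBA1B from 13.5 ± 1.49% to 37.6 ± 2.25% and TUBA1C from 16.3 ± 0.502% to 37.2 ± 2.17% (SD, n = 2). TUBA4A went from 20.8 ± 0.120% to 22.8 ± 0.0849%. By counts, the alpha pool of HSF1-overexpressing cells was therefore mainly TUBA1B and TUBA1C in near-equal parts. Per length they were not equal, at 43.4 CPM per kb for TUBA1B and 32.9 for TUBA1C in those cells. Within the beta family, which held no counts at the TUBB locus, the main pair held more than in WT cells. TUBB6 went from 48.4 ± 0.325% to 56.6 ± 0.714% and TUBB4B from 42.6 ± 0.346% to 42.2 ± 0.848%, a difference within the replicate spread for TUBB4B. Since the missing counts of TUBB are no measure of its expression, these are shares of the counted beta isotypes only.

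The summed level of the whole family was lower in both families. Alpha-tubulin stood at 1307 and 1302 CPM in WT cells and at 449 and 373 CPM in HSF1-overexpressing cells, 31.5% of the WT mean. Beta-tubulin, without TUBB, stood at 897 and 898 CPM in WT cells and at 376 and 334 CPM in HSF1-overexpressing cells, 39.6% of the WT mean. All 10 isotypes together went from 2204 and 2200 CPM to 825 and 707 CPM, 34.8% of the WT mean. In no sum did the groups overlap, though 2 libraries against 2 cannot reach an exact two-sided permutation p below 0.33. Without TUBA1A the sum was still 48.6% of the WT mean, and the alpha sum without it 60.9%. The 10 genes took 0.212 and 0.219% of all counts in the WT libraries and 0.0856 and 0.0708% in the HSF1 libraries. The ratio of alpha to beta counts, again without TUBB, was 1.46 and 1.45 in WT cells and 1.19 and 1.12 in HSF1-overexpressing cells.

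The fall of TUBA1A was set against its neighbours, since TUBA1A, TUBA1B and TUBA1C lie together on chromosome 12. Among the 3 tested genes nearest on the side of TUBA1B, LMBR1L was at 34.5 and 41.1 CPM in WT cells and 34.9 and 35.5 in HSF1-overexpressing cells (log2 fold change -0.10), RHEBL1 was higher (1.38) and KMT2D was lower (-0.34). Both calls were lost without the second HSF1 library (adjusted p = 0.0968 and 0.115, edgeR). On the other side TROAP, a spindle-associated protein gene, rose (log2 fold change 2.74; adjusted p = 8.39e-10, edgeR), DNAJC22 was not called (0.26) and SPATS2 rose (0.47). Of the 23 other tested genes within 500 kb of TUBA1A, 5 were lower and 8 higher, where 33.2 and 32.7% of all tested genes were, and the range of log2 fold changes was -1.78 to 3.63 with a median of 0.12. No other gene in the window came near the value of TUBA1A.

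**Figure D4:**
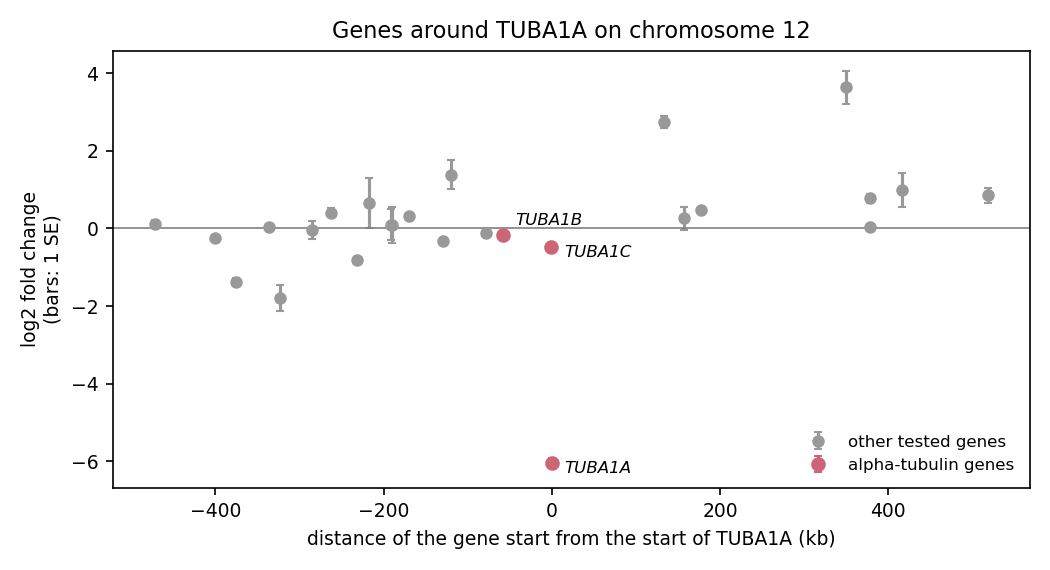
Log2 fold change (bars of 1 SE) of the tested genes within 500 kb of TUBA1A against the distance of their start from its start in kb. TUBA1A lies at -6.04, TUBA1B and TUBA1C near 0, and the 23 other genes between -1.78 and 3.63.

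Likeness to TUBA1A was measured as the Euclidean distance between log2(CPM + 0.5) profiles over the 4 libraries, each centred on its mean. The 5 nearest genes were PSG5 (0.22), PSG4 (0.25) and PSG6 (0.26), which encode pregnancy-specific glycoproteins, NID2 (0.26), a basement membrane nidogen, and MARCHF4 (0.26), a membrane ubiquitin ligase. PSG4 was at 164 and 154 CPM in WT cells and at 2.15 and 2.21 CPM in HSF1-overexpressing cells. NID2 was at 61.4 and 60.0 CPM against 0.359 and 0.302. PSG5 had 4 and 3 counts, PSG6 had 0 in both HSF1 libraries and MARCHF4 was at 0.677 and 0.453 CPM there, so the distances of PSG5, PSG6, NID2 and MARCHF4 depend on the added 0.5 CPM. Of the other isotypes, TUBB3 came 35th and TUBB2A 50th in the same order, and TUBA1B came last of the tested members, at 6190.

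The promoters of the isotypes were read from RefSeq (hg38, 250 bases before each start), which gave 15 windows for the 10 genes. Those of 3 genes are shown in full because they belong to the members with the deepest and the smallest change and to the beta isotype TUBB2A. Capitals mark the CCAAT box, the common form of the TATA box (TATAAA) and the inverted pairs GAANNTTC and TTCNNGAA of the heat shock element, on either strand.
TUBA1A, chr12:49189081-49189330, minus strand: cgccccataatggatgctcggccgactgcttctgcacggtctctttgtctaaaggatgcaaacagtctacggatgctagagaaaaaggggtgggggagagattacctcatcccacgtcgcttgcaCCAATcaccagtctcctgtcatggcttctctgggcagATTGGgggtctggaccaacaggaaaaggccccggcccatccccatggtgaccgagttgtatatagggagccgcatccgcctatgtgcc
TUBA1B, chr12:49131396-49131645, minus strand: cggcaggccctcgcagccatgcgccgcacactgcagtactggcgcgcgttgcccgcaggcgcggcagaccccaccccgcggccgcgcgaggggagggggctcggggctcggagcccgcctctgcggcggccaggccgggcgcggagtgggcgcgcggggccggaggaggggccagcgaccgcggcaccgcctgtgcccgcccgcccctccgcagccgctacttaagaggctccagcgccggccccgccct
TUBB2A, chr6:3157545-3157794, minus strand: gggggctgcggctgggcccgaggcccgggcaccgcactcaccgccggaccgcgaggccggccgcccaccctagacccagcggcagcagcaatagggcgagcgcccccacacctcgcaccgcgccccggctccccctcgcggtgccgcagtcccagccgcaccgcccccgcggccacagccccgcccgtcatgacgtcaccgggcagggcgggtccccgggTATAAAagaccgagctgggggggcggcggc
TUBA1A held CCAAT at 125 and 88 bases before its start, the second on the other strand, and TUBA1B held neither CCAAT nor a marked element. TUBB2A held TATAAA 30 bases before its start, the only member to do so (10.7% of 35116 promoters hold it). Over the family, GAANNTTC occurred in 1 member, TUBA1C (5.78% of all promoters), and TTCNNGAA in 0 (6.62%). In TUBA1C it was 1 site, 156 bases before the start at 49227926 and 249 before that at 49228019. The TUBA1C window before the start at 49265082 held 0. CCAAT occurred in 7 of the 10 members and in 9 of the 15 windows, against 32.0% of all promoters, and GGGCGG, the GC box, in 8 members and 9 windows, against 42.6%. CAGGTG, an E-box, occurred in 1 member, TUBA4A (17.5%). A match says only that these letters are in the window.

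Beyond the isotypes, 91 other genes of tubulin biology were taken in 7 lists. Of these 73 were tested, 25 were higher and 24 lower, against 32.7 and 33.2% of all tested genes, and their median log2 fold change was 0.16. Scaling by library size alone gave 33 higher and 21 lower, and leaving out the second HSF1 library 14 and 15.

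The other tubulins, a list that takes in further alpha and beta genes, were not called lower. Of 12 listed, 7 were tested, 3 were higher and 0 lower, beside the same 32.7 and 33.2% of all tested genes, with a median log2 fold change of 0.40. TUBE1, epsilon-tubulin of the centriole, rose 3.14-fold, from 5.49 and 6.03 CPM to 17.7 and 18.5 CPM (log2 fold change 1.65; adjusted p = 6.47e-08, edgeR). TUBD1, delta-tubulin, and TUBG2, the second gamma-tubulin, also rose, by log2 fold changes of 0.60 and 0.54. The call of TUBD1 was lost under DESeq2 (adjusted p = 0.0831) and without either HSF1 library (0.0712 and 0.053, edgeR). TUBG1, the gamma-tubulin that nucleates microtubules in most cells, had the largest CPM of the list and was at 47.0 and 45.7 CPM in WT cells and at 48.0 and 43.4 CPM in HSF1-overexpressing cells. TUBA3D (log2 fold change 0.40), TUBAL3 (-0.004) and TUBB1 (-0.27) were tested and not called, at 2.03 CPM or lower in every library. The 5 genes that were not tested, TUBA3C, TUBA3E, TUBA8, TUBB4A and TUBB8, stood at 0.252 CPM or lower in every library.

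The genes that fold and join tubulin moved in both directions. Of 8 listed, 7 were tested, 3 were higher and 3 lower, beside 32.7 and 33.2% of all tested genes. The calls of TBCC and TBCCD1 were lost under alternatives, that of TBCC without the second HSF1 library. ARL2, the small GTPase that works with the cofactors in dimer assembly, rose 2.11-fold, from 17.9 and 16.2 CPM to 32.4 and 39.6 CPM (adjusted p = 1.43e-06, edgeR). TBCA, a beta-tubulin cofactor with the largest CPM of the list over the 4 libraries, rose 1.23-fold, from 64.8 and 73.2 CPM to 82.7 and 87.6 CPM, and lost its call without the first WT library (adjusted p = 0.0668, edgeR) or the second HSF1 library (0.115). TBCB, an alpha-tubulin cofactor, fell 1.88-fold, from 79.7 and 83.6 CPM to 39.3 and 47.9 CPM. TBCE was not matched between the annotations and is not reported.

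For the autoregulation of tubulin mRNA, TTC5 was at 10.5 and 10.6 CPM in WT cells and at 10.4 and 12.4 CPM in HSF1-overexpressing cells and was not called. SCAPER was at 10.6 and 10.4 CPM against 8.32 and 7.90 CPM and was lower (log2 fold change -0.37; adjusted p = 0.0285, edgeR). That call was lost under 5 alternatives, at adjusted p of 0.0687 to 0.127. TUBA1A, TUBA1B and TUBA1C, which begin with the same 15 coding bases shown above, had log2 fold changes of -6.04, -0.18 and -0.48. The part of autoregulation in these values was not tested.

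The gamma-tubulin ring complex caps and starts microtubules. All 11 listed genes were tested, 6 were higher and 1 lower, beside 32.7 and 33.2% of all tested genes, and 0 passed 2-fold. The calls of TUBGCP4, TUBGCP5, MZT1 and MZT2B were each lost under at least 1 alternative. CKAP5, a microtubule polymerase with the largest CPM of the list, was at 219 and 200 CPM in WT cells and 246 and 230 CPM in HSF1-overexpressing cells and was not called. TUBGCP2 was the lower one (log2 fold change -0.42) and lost its call without the second HSF1 library (adjusted p = 0.0895, edgeR).

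Of 21 listed enzymes that modify tubulin, 15 were tested, 7 were higher and 2 lower, beside the same 32.7 and 33.2%. The calls of TTLL4, TTLL5, TTLL7 and AGBL5 were each lost under at least 1 alternative. AGTPBP1, which trims glutamates from tubulin tails, rose 2.57-fold, from 9.59 and 8.13 CPM to 21.5 and 24.2 CPM (adjusted p = 3.11e-07, edgeR). VASH1, a tyrosine carboxypeptidase of alpha-tubulin, rose 2.52-fold at a low level, from 1.28 and 0.969 CPM to 3.19 and 2.47 CPM. SVBP, the small partner it needs, fell 2.05-fold, from 12.5 and 11.7 CPM to 5.54 and 6.34 CPM. TTLL12, with the largest CPM of the list, rose 2.02-fold, and TTL, the ligase that restores the tyrosine, was at 53.6 and 50.3 CPM in WT cells and at 55.8 and 62.6 CPM in HSF1-overexpressing cells. ATAT1, the alpha-tubulin acetyltransferase, was at 0 in every library and, like TUBB, is encoded in the major histocompatibility region.

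The proteins that bind and stabilise microtubules or track their growing ends fell for the most part. Of 23 listed, 20 were tested, 15 were lower and 2 higher, where 33.2 and 32.7% of all tested genes were. Past 2-fold 7 were lower, where 14.0% of all tested genes were, and the median log2 fold change was -0.42. The calls of MAPRE3, MAP7D3 and CLASP2 were lost under alternatives, that of CLASP2 without the second HSF1 library. MAP1B, a neuronal microtubule-associated protein, went from 175 and 160 CPM to 14.2 and 12.2 CPM, 12.6-fold lower (log2 fold change -3.66, SE 0.11; adjusted p = 4.12e-12, edgeR). MAP2, known from dendrites, went from 124 and 135 CPM to 13.6 and 8.15 CPM, 11.7-fold lower (log2 fold change -3.55, SE 0.16; adjusted p = 1.52e-10, edgeR). Both stood clearly apart from the rest of their list. The other 5 past 2-fold, MAP1S, MAPRE2, CLIP1, CAMSAP1 and MAP9, were between 2.14- and 2.74-fold lower. MAP4, the ubiquitous protein of this kind, with the largest CPM of the list, fell 1.42-fold, from 702 and 615 CPM to 464 and 467 CPM, and lost its call without the second HSF1 library (adjusted p = 0.0522, edgeR). MAP1A was the gene higher past 2-fold, at or below 1.23 CPM in every library, and its call was lost under 4 alternatives.

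Of 14 listed proteins that shorten or cut microtubules, 11 were tested, 4 were higher and 2 lower, where 32.7 and 33.2% of all tested genes were. The calls of KIF2A and KATNAL1 were lost without the second HSF1 library. KIF2C, a depolymerising kinesin of mitotic centromeres, rose 4.66-fold, from 7.25 and 7.97 CPM to 38.6 and 32.2 CPM (log2 fold change 2.22, SE 0.13; adjusted p = 1.86e-09, edgeR). STMN3, a stathmin family gene, rose 3.05-fold and FIGNL1, an AAA ATPase of the fidgetin family, rose 2.14-fold. STMN1, the stathmin that binds free dimers, with the largest CPM of the list, was at 114 and 116 CPM in WT cells and at 116 and 104 CPM in HSF1-overexpressing cells.

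**Figure D5:**
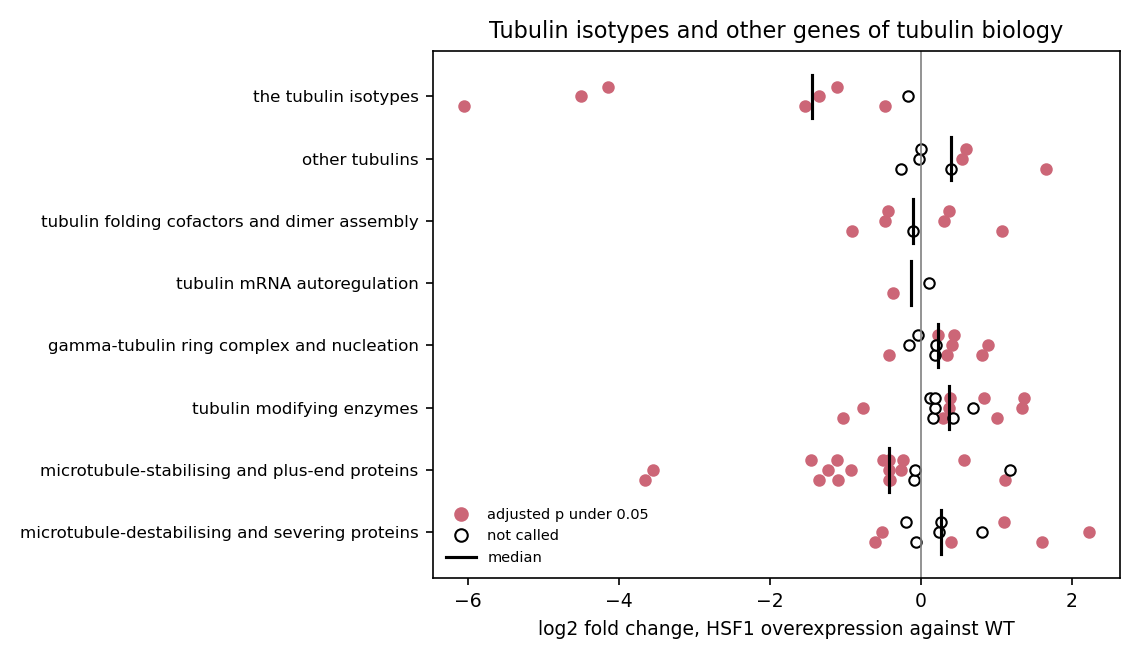
Log2 fold change of each tested gene in the tubulin isotypes and the 7 other lists (filled, adjusted p under 0.05; open, not called; black line, median of the list). The isotypes have the lowest median, -1.44, the stabilising and plus-end proteins follow at -0.42, and the medians of the other lists lie between -0.13 and 0.40.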

How the data were processed

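RNA-seq libraries were grouped by the labels' genotype, with 2 replicates each. Paired-end reads had been aligned to hg38 with HISAT2 2.0.5, processed with SAMtools 1.13 and counted per gene with featureCounts 1.6.5. The authors deposited raw counts per gene, and a second table of log2-scale values that they normalized with DESeq2 1.32.0, used here for the study's ratio rule and as an alternative. Strand, multi-mapping and overlap settings are not given in the sources used here.

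The main test of the counts was edgeR's (version 4.0.16, R 4.3.3; TMM factors 0.964 to 1.04, filterByExpr, quasi-likelihood test, no replicate block), with Benjamini-Hochberg adjustment over all 15830 tested genes and calls at 0.05. The common biological coefficient of variation was 0.0738. The deviations of same-numbered libraries correlated at 0.000143 over all tested genes and at -0.113 over the 9672 above 8 CPM. With 2 libraries a group this cannot settle whether the replicate numbers pair the libraries. The p-values rest on the spread between 2 libraries a group, moderated by the spread over all tested genes (prior degrees of freedom 11.9). The test was checked on simulated data. Alternatives were other scalings, no filter, DESeq2 1.42.0, the block, a 2-fold threshold and each library left out. Members and lists were chosen with earlier results of these data known. Named are the members, list genes that passed 2-fold or had the largest CPM of their list, 3 tested genes on either side of the TUBA1 cluster and the 5 genes nearest TUBA1A in profile. Others were named after their values were seen. Sequences come from hg38, GENCODE and RefSeq.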

Additional observations from a re-analysis of the deposited data

How the results depend on the processing

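TUBA1A kept its direction under every alternative and its call in every alternative fit, with log2 fold changes from -6.19 to -5.91, as did TUBA1C, TUBA4A, TUBB2A, TUBB3, TUBB4B and TUBB6. TUBA1B, not called, ran from -0.38 to 0.014 with single libraries left out: it was called lower without the second WT library (-0.30) or the first HSF1 library (-0.38) and turned to 0.014 without the second HSF1 library. On the deposited normalized values, which shrink low counts, the differences of TUBB2A and TUBB3 were -3.78 and -4.00. The isotypes called lower numbered 7 to 9 with single libraries left out, 8 without the filter, 7 under DESeq2 and 6 past 2-fold, where TUBA1C drops out.

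Of all tested genes 2358 were higher and 2218 lower past 2-fold, and 9 and 8 of the pathway genes. With single libraries left out, 14 to 25 pathway genes were higher and 15 to 22 lower, the lowest without the second HSF1 library, and all calls ran from 7629 to 9885 against 10428. Library-size scaling gave 10209 calls (33 and 21 pathway genes), no filter 10912 of 32631 genes, and DESeq2 8669. With the replicate block, 10309 genes were called and 7 isotypes were lower (TUBA1A -6.05), while MAPRE3 and MZT2B lost their calls. The libraries share only a replicate number, and the crossed pairing, tried after seeing the data, gave 10916 calls.

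The HSF1-minus-WT share difference of TUBA1A was -28.0 percentage points, -26.9 per length, -47.1 within its family and -24.3 over all tubulin rows, and the summed log2 ratio over all tubulin rows was -1.35. For TUBA4A it turned to 0.336 per length, 2.03 within its family and 0.0666 without the second HSF1 library, and was -1.28 over all tubulin rows. For TUBB4B it was -0.338 within its family and 0.00602 over all tubulin rows. For TUBA4A without single libraries it ran from -0.247 to 0.0666. Under library-size scaling NEDD1 (0.017), STMN1 (0.001), TUBAL3 (0.058) and TUBG1 (0.043) turned positive. With single libraries left out, COL1A1 ran from -0.041 to 0.457, LMBR1L from -0.21 to 0.009, NEDD1 from -0.097 to 0.019, STMN1 from -0.137 to 0.026, TTC5 from -0.016 to 0.236, TTLL3 from -0.085 to 0.352, TUBAL3 from -0.194 to 0.207, TUBB1 from -0.558 to 0.098 and TUBG1 from -0.09 to 0.06. None of these genes was called in the main test. Over the other named and list genes 63 calls were lost and 17 gained. The small number of libraries limits the precision, and TUBB2B and TUBB gave too few counts to test.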
